A study of Danio rerio with 8 samples.

Results

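The Kit and ErbB receptor tyrosine kinases and the kit ligands were followed in 8 RNA-seq libraries of zebrafish cells. They are the receptors kita and kitb, the ligands kitlga and kitlgb, and the receptors egfra, erbb2, erbb3a, erbb3b and erbb4a. Rows of the deposited count table were taken by symbol, and a symbol without its paralog letter was accepted. The 9 symbols gave 11 of the 28272 rows in the table, because 3 rows carry the name ERBB4 and could not be told apart between erbb4a and erbb4b. Of the 11 rows, 10 passed the filter on low counts and were tested.

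All fish of both groups were adults of 1 strain, whose label lists, among other items, the mitfa promoter driving human BRAF (V600E) in one transgene and EGFP in another, and a mutated alb locus. That promoter is active in the melanocyte lineage, and EGFP-positive cells lacking pigment had been collected by cell sorting. The labels assign 4 libraries to melanocytes from scales and 4 libraries to melanoma cells, with no word on whether each stems from its own fish. The p-values below thus cover only the spread among these libraries, and part of it may be technical. Scale libraries is the name used here for the former, since their marker transcripts go against the label, as given next.

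Libraries held 86888494 to 100270657 counts each. The 10 most abundant genes took 31.9% to 41.6% of counts in scale libraries and 5.83% to 6.51% in melanoma. Scale replicate 2 and the second column of scale replicate 3 had the fewest genes with at least 10 counts, 22836 and 22537, against 26377 and 26448 in the other two scale libraries, and are called the 2 less complex libraries. Levels are TMM-scaled CPM (counts relative to a scaled library total), given as mean ± SD over n = 4 libraries per group. They are not corrected for gene length, so levels are compared between libraries and not between genes.

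The pigment cell markers summed to 55.6 to 113 CPM in scale libraries and to 1988 to 12088 CPM in melanoma, and 9 of 11 marker rows rose in melanoma. The neural crest and pigment cell factor sox10 stood at 0.461 to 1.24 CPM in scale libraries and at 194 to 434 CPM in melanoma. Tyrosinase, tyr, the enzyme of melanin synthesis, stood at 0.461 to 2.13 CPM and at 21.3 to 48.9 CPM. Epidermal markers went the other way, with a sum of 22196 to 43836 CPM in scale libraries and 23.9 to 148 CPM in melanoma, and 6 of 6 rows fell. Among them the basal keratin krt5 stood at 16240 to 32579 CPM in scale libraries and at 1.81 to 89.0 CPM in melanoma. Markers of fibroblasts and scale bone also fell in 6 of 6 rows, from sums of 338 to 7843 CPM to 2.39 to 28.4 CPM. No marker row stood at 0 in every library of a group. The part of these cell types in the results on receptors and ligands was not tested. In bulk samples, fewer cells of a type and less RNA per cell cannot be told apart.

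Kit is a class III receptor tyrosine kinase that is switched on when its ligand, stem cell factor, pairs receptor molecules on the cell surface. In zebrafish, kita is known for the migration and survival of embryonic melanocytes, and kitlga encodes a ligand that acts on it. The ErbB receptors bind EGF-like ligands and neuregulins and signal as pairs. ErbB2 binds no known ligand, and ErbB3 has little kinase activity of its own, so each depends on a partner. In zebrafish, erbb3b is known for Schwann cell development and for setting up the stem cells that give rise to adult melanocytes, and the mammalian EGF receptor is a regulator of epidermal growth.

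Of the 10 tested rows, 1 rose in melanoma (kita) and 3 fell (egfra, erbb3a and erbb3b), and 6 did not pass the test. Across all 26749 genes tested, the quasi-likelihood test of edgeR, adjusted by Benjamini-Hochberg, called 21.7% higher and 15.2% lower in melanoma, which makes 36.8% in either direction. The share of members called was therefore close to that of all genes. The groups did not overlap for the same 4 rows and overlapped for the other 7 rows, and 36.9% of all tested genes showed no overlap (21.7% higher and 15.2% lower in melanoma). The median log2 change was -1.42 over the tested members and 0.05 over all genes tested.

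**Figure D1:**
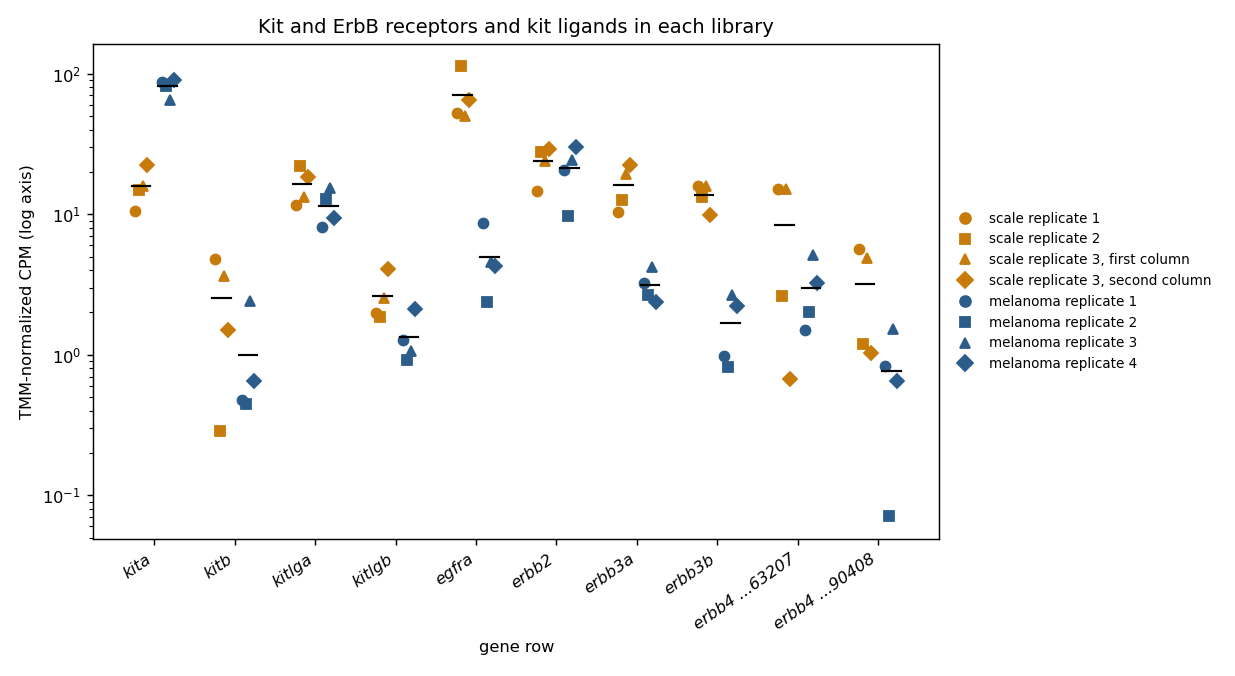
TMM CPM of each receptor and ligand row in every library, on a log axis, with points for single libraries and black bars for group means; the untested ERBB4 row is not drawn. Scale and melanoma points lie apart for kita, egfra, erbb3a and erbb3b and overlap for the other rows, and CPM is not corrected for gene length.

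The receptor kita rose from 15.9 ± 4.87 CPM in scale libraries to 81.1 ± 11.7 CPM in melanoma. Its row has the identifier ENSDARG00000043317 and the name KIT in the symbol table. Scale replicates 1 and 2, then the first column and the second column of replicate 3, the order used throughout, stood at 10.5, 14.8, 15.96 and 22.3 CPM. Melanoma replicates 1 to 4 stood at 87.9, 81.3, 64.6 and 90.6 CPM. Every melanoma library was above every scale library, and the least melanoma value was well clear of the top scale value. The log2 change was 2.35 ± 0.35 (SE; edgeR adjusted p = 0.000362). The SE is approximate, taken as the absolute change over the root of F in that test. Within each library, 75.4% to 84.2% of tested genes lay below kita in the scale libraries and 91.9% to 95.7% in melanoma. With any 1 library left out, it was between 2.004 and 2.48.

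The paralog kitb (ENSDARG00000056133), a second Kit receptor gene of bony fish, showed no change that passed the test. It stood at 4.79, 0.289, 3.63 and 1.51 CPM in scale libraries and at 0.477, 0.449, 2.42 and 0.650 CPM in melanoma. The ranges overlapped, and the 2 less complex scale libraries held the lower scale values, with a mean of 0.899 CPM against 4.21 CPM in the other two. The lowest value rests on 13 counts. It changed by -1.35 ± 0.83 on the log2 scale (edgeR adjusted p = 0.221), and with the less complex pair of libraries left out it was -2.15 and passed (adjusted p = 0.0437). With 1 library left out it ranged from -2.27 to -1.04, and the low end was without melanoma replicate 3, the high melanoma library (adjusted p = 0.0654). RefSeq's GRCz12tu annotation, made on another build than the authors used, has kitb overlapping clockb. How counting treated strand is not given, and shared exons were not checked. Whether reads of one gene of the pair were counted for the other therefore cannot be told. That annotation also has egfra, kitlga, erbb4a and erbb4b overlapping long non-coding RNA genes, and erbb4b overlapping a further protein-coding gene. The same limit holds for their rows.

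The ligand kitlga (ENSDARG00000070917) did not pass the test. Scale libraries stood at 11.7, 22.1, 13.2 and 18.4 CPM, and melanoma libraries at 8.15, 12.8, 15.3 and 9.39 CPM. The groups overlapped, with means of 16.4 ± 4.797 and 11.4 ± 3.26 CPM and a log2 change of -0.52 ± 0.36 (edgeR adjusted p = 0.280). It was called lower with upper quartile scaling (-0.98, adjusted p = 0.0412) and with a filter of 5 CPM in 4 libraries (-1.13, adjusted p = 0.0104), and with total counts alone its sign turned (0.71, adjusted p = 0.0953). The median of all genes moved with the scaling too, from 0.05 with TMM to -0.06 with RLE size factors, -0.39 with upper quartile scaling and 1.17 with total counts alone. Relative to the medians of these scalings, kitlga lay between -0.46 and -0.63, and kita between 2.25 and 2.39. The 5 CPM filter is not among them: its median over all genes was 0.07, beside -1.13 for kitlga.

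The second ligand gene kitlgb (ENSDARG00000058042) stood at 1.97, 1.87, 2.54 and 4.07 CPM in scale libraries and at 1.26, 0.922, 1.07 and 2.13 CPM in melanoma. Only melanoma replicate 4 reached into the scale range. Its log2 change of -0.95 ± 0.51 did not pass (edgeR adjusted p = 0.161), and with total counts alone it was 0.25, or -0.92 relative to the median of all genes.

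Among the ErbB receptors, egfra fell from 69.997 ± 29.1 CPM to 4.96 ± 2.63 CPM, a 14.1-fold difference in group means. Its row (ENSDARG00000013847, named EGFR) stood at 52.1, 112, 50.3 and 65.0 CPM in scale libraries. Melanoma libraries stood at 8.62, 2.36, 4.55 and 4.29 CPM. Both groups were well apart, and scale replicate 2 and melanoma replicate 1 were the high libraries of their groups. On the log2 scale the change was -3.82 ± 0.49 (edgeR adjusted p = 0.000149), and with any 1 library left out it lay between -4.22 and -3.58. Of tested genes, 93.1% to 95.2% lay below egfra in scale libraries and 49.1% to 68.5% in melanoma.

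The receptor erbb3b (ENSDARG00000036993) fell 8.20-fold, from 13.7 ± 2.84 to 1.67 ± 0.918 CPM. Scale libraries stood at 15.9, 13.2, 15.8 and 9.86 CPM and melanoma libraries at 0.978, 0.812, 2.68 and 2.22 CPM. No melanoma library came near the lowest scale library, the second column of replicate 3. The log2 change was -3.03 ± 0.48 (edgeR adjusted p = 0.000556), and it lay between -3.35 and -2.80 with any 1 library left out.

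Its paralog erbb3a (ENSDARG00000006202, named ERBB3) fell 5.19-fold, from 16.2 ± 5.57 to 3.12 ± 0.803 CPM. Its scale values were 10.4, 12.7, 19.3 and 22.3 CPM, and its melanoma values 3.26, 2.66, 4.18 and 2.36 CPM. The groups lay apart, and the melanoma libraries were close to each other. The log2 change was -2.37 ± 0.40 (edgeR adjusted p = 0.000752). Both erbb3 paralogs thus fell, and the change in their ratio is given with the other ratios.

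The shared partner erbb2 (ENSDARG00000026294) did not pass the test. It stood at 14.6, 27.6, 24.1 and 29.3 CPM in scale libraries and at 20.7, 9.64, 24.3 and 29.98 CPM in melanoma. The groups overlapped almost wholly, with means of 23.9 ± 6.58 and 21.2 ± 8.58 CPM. The log2 change was -0.18 ± 0.40 (edgeR adjusted p = 0.754). Its sign turned without melanoma replicate 2 (0.07), the lowest library, and with the less complex pair of scale libraries left out (0.08), and with total counts alone it passed at 1.07 (adjusted p = 0.0496). Relative to the median of all genes, which that scaling puts at 1.17, erbb2 was at -0.10, against -0.23 with TMM.

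The ERBB4 rows split the scale libraries. Row ENSDARG00000063207 stood at 15.0, 2.60, 15.2 and 0.671 CPM in scale libraries and at 1.49, 2.002, 5.16 and 3.26 CPM in melanoma. Row ENSDARG00000090408 stood at 5.64, 1.2003, 4.88 and 1.03 CPM and at 0.831, 0.0709, 1.54 and 0.650 CPM. In both rows the 2 less complex libraries lay low, with means of 1.64 and 1.11 CPM against 15.1 and 5.26 CPM in the other two scale libraries, and within or below the melanoma range. The split was not confined to ERBB4. The ligand row nrg3b had means of 8.07 against 36.5 CPM, and the endothelial row kdr 0.657 against 6.05 CPM. By TMM CPM, 5 of the 11 member rows had the lower mean in the less complex pair, and others such as egfra had the higher (88.8 against 51.2 CPM). That division depends on the scaling. TMM factors were 0.467 and 0.538 for the less complex pair, against 0.863 and 0.874, and a lower factor gives a higher CPM. As counts, egfra had 5061 and 3100 in the less complex pair, against 3911 and 4123.

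Over all libraries neither row passed the test, with log2 changes of -1.49 ± 0.80 (edgeR adjusted p = 0.165) for ENSDARG00000063207 and -2.05 ± 0.85 (adjusted p = 0.0789) for ENSDARG00000090408. Both were called lower once the 2 less complex libraries were left out, at -2.41 (adjusted p = 0.0081) and -2.83 (adjusted p = 0.0329). Leaving out the second column of replicate 3 alone also gave calls, at -1.95 (adjusted p = 0.0284) and -2.41 (adjusted p = 0.0422). Row ENSDARG00000090408 was called without scale replicate 2 as well (-2.41, adjusted p = 0.0489), with upper quartile scaling (-2.51, adjusted p = 0.0423) and with DESeq2 (-2.10, adjusted p = 0.0174), and ENSDARG00000063207 with the 5 CPM filter (-2.23, adjusted p = 0.0430). The third row, ENSDARG00000089536, had 0 to 41 counts per library and was not tested.

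**Figure D2:**
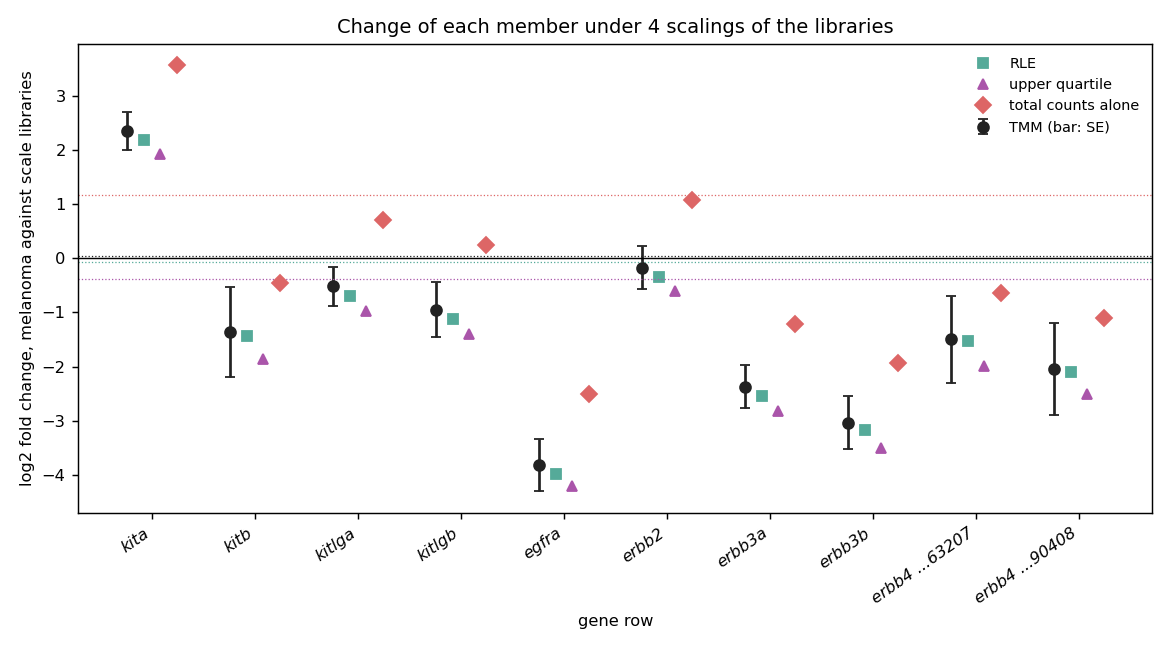
Log2 change, melanoma against scale libraries, of the 10 tested rows, with black points and approximate SE bars for TMM and other marks for 3 other scalings; the untested ERBB4 row is not drawn. Dotted lines give the median of all tested genes under each scaling, and kita lies above all of them. The called rows egfra, erbb3a and erbb3b lie below all of them, as do kitb and the tested ERBB4 rows, which were not called with TMM.

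Ratios between members within a library do not depend on how libraries are scaled. They were taken as log2 ratios of counts with 0.5 added, and 9 pairs were compared with a two-sided exact permutation test over the 70 regroupings of 4 against 4 libraries. The smallest p that this design allows is 0.0286. Of the 9 pairs, 4 reached it, and 0 passed after adjustment over the pairs, where the least value was 0.0643. A pair at the smallest p can pass that adjustment only if most of the other pairs reach it too. Not passing therefore says little about any single pair. Constant differences in gene length cancel in the change of a ratio.

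The log2 ratio of kita to its ligand kitlga was -0.16, -0.58, 0.28 and 0.28 in scale libraries and 3.43, 2.66, 2.08 and 3.27 in melanoma. Its mean moved by 2.91, from -0.05 ± 0.41 to 2.86 ± 0.62, with no overlap (exact p = 0.0286, adjusted p = 0.0643). The ratio of kita to erbb3b moved most of the 9 pairs, by 5.58, from 0.19 ± 0.74 to 5.77 ± 0.97 (exact p = 0.0286, adjusted p = 0.0643). These ratios were higher in 4 of 4 melanoma libraries than in any scale library. For kita to erbb3b, that follows from the opposite changes of the genes, each without overlap. For kita to kitlga, it follows from the ranges of the single rows. In scale libraries kita was at most 22.3 and kitlga at least 11.7 CPM, and in melanoma kita was at least 64.6 and kitlga at most 15.3 CPM. The p-values of these ratios thus add no separate test.

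Against the shared partner erbb2, egfra went from 1.52 ± 0.48 to -2.13 ± 0.66, a difference of -3.65. The ratio of erbb3b to erbb2 went from -0.78 ± 0.72 to -3.72 ± 0.51, a difference of -2.95. Both ratios were lower in 4 of 4 melanoma libraries than in any scale library (exact p = 0.0286, adjusted p = 0.0643 for each). That too follows from the ranges of the single rows given above, so these p-values add no separate test.

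The remaining 5 ratios overlapped between groups. The ratio of erbb3a to erbb3b differed by 0.85 (exact p = 0.171, adjusted p = 0.220), that of erbb3b to egfra by 0.70 (exact p = 0.286, adjusted p = 0.321) and that of kitlga to kitlgb by 0.44 (exact p = 0.343, adjusted p = 0.343). The ratio of kita to kitb differed by 3.52, from 3.19 ± 1.98 to 6.71 ± 1.33 (exact p = 0.0571, adjusted p = 0.103). For the summed ERBB4 rows against egfra the difference was 2.79, from -3.17 ± 2.16 to -0.38 ± 1.04 (exact p = 0.0857, adjusted p = 0.129). In each of the latter pair of ratios, the 2 less complex scale libraries lay on one side of the other two.

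**Figure D3:**
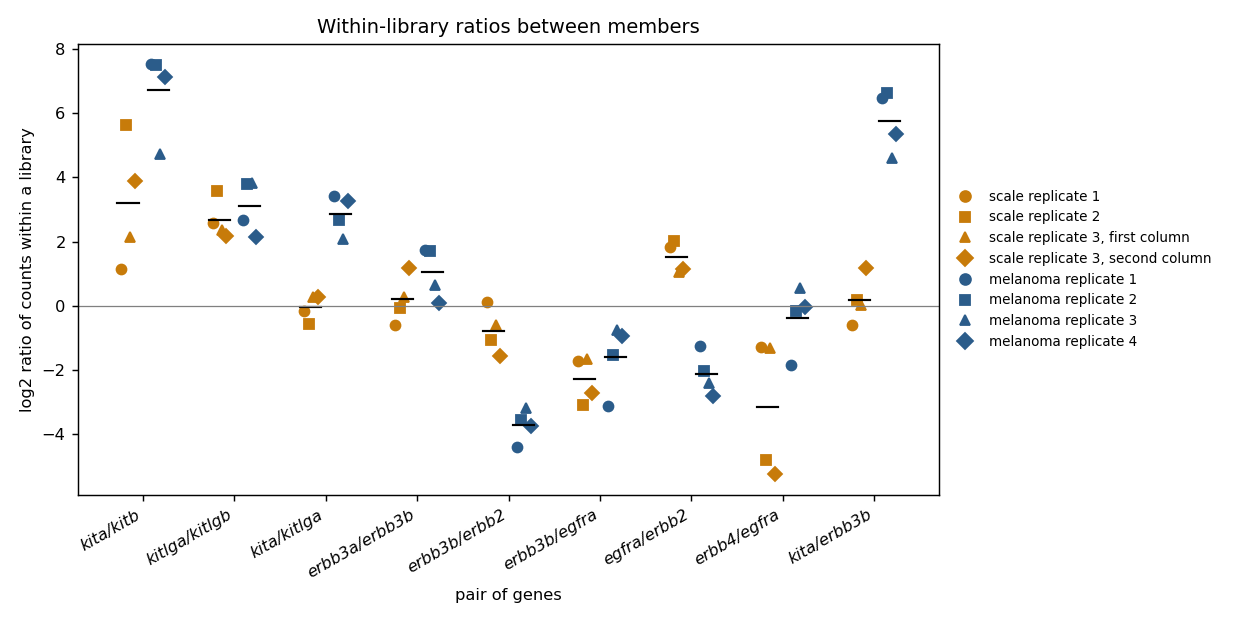
Log2 ratio of counts between members within each library for the 9 pairs, with points for libraries and black bars for group means. Scale and melanoma libraries are apart for kita to kitlga, kita to erbb3b, erbb3b to erbb2 and egfra to erbb2, and overlap for the other pairs.

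The ErbB ligands had 8 rows, all tested, of which 0 rose, 2 fell and 6 did not pass, with a median log2 change of -1.27. For this list and those below, the shares called over all genes tested were 21.7% higher and 15.2% lower. A neuregulin 2 row, nrg2 (ENSDARG00000077818), fell from 57.6 ± 10.5 to 13.8 ± 4.01 CPM, a log2 change of -2.06 ± 0.34 (edgeR adjusted p = 0.000675). The other row named nrg2 (ENSDARG00000086585) overlapped between groups and did not pass (log2 change -0.24, edgeR adjusted p = 0.607). The fall thus holds for 1 nrg2 row and not for both. A gene for the heparin-binding ligand of the EGF receptor, hbegfa, fell from 65.96 ± 22.3 to 7.47 ± 5.64 CPM (-3.14 ± 0.62, adjusted p = 0.00212). Its paralog row hbegf (ENSDARG00000031246) had the opposite sign and did not pass (1.48, edgeR adjusted p = 0.168). It stood at 1.63 to 5.24 CPM in scale libraries and at 20.2, 12.7, 1.19 and 1.58 CPM in melanoma. No row was found for the neuregulin gene nrg1. Fallen ligand rows numbered 4 when the second column of scale replicate 3 was left out, and 4 when both less complex libraries were.

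Inhibitors and turnover factors of ErbB receptors moved in both directions, with 4 of 8 tested rows higher, 2 lower and 2 not passing, and a median log2 change of 0.96. The ubiquitin ligase gene cblb, whose product marks active receptors for breakdown, rose from 24.8 ± 4.67 to 151 ± 64.4 CPM (2.61 ± 0.39, edgeR adjusted p = 0.000381). The sprouty gene spry2, also on this list, rose from 4.42 ± 3.46 to 55.6 ± 40.3 CPM (3.66 ± 0.70, adjusted p = 0.00178). The family members lrig2 and lrig1 went opposite ways: lrig2 rose by 1.82 ± 0.35 (adjusted p = 0.00189), whereas lrig1, which in mammals limits ErbB receptor levels, fell from 11.7 ± 2.79 to 2.73 ± 1.002 CPM (-2.10 ± 0.41, adjusted p = 0.00201). A further ubiquitin ligase gene, cblc, fell from 4.84 ± 2.09 to 1.34 ± 0.190 CPM (-1.85 ± 0.49, adjusted p = 0.0112). With total counts alone, the calls of lrig1 (adjusted p = 0.138) and cblc (adjusted p = 0.317) were lost.

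Proteases and rhomboid-like factors that act in the release of ErbB ligands had 9 tested rows, 2 higher, 1 lower and 6 not passing, with a median log2 change of 0.18. Both rows named rhbdf1, an inactive rhomboid, were higher, by 2.21 ± 0.54 (ENSDARG00000017367, edgeR adjusted p = 0.00747) and by 1.30 ± 0.33 (ENSDARG00000036541, adjusted p = 0.00891). Row ENSDARG00000017367 overlapped between groups, at 7.66 to 10.9 CPM in scale libraries and at 9.20, 62.1, 30.4 and 72.5 CPM in melanoma. The call of ENSDARG00000017367 was lost without the 2 less complex libraries (adjusted p = 0.0611). That of ENSDARG00000036541 was lost with the 5 CPM filter (0.0585) and without scale replicate 1 (0.0791), scale replicate 2 (0.0626) or the first column of replicate 3 (0.0809), each an adjusted p. The protease gene adam10b was lower, from 2.21 ± 0.605 to 0.676 ± 0.313 CPM (-1.70 ± 0.57, adjusted p = 0.0356). Its call was lost without scale replicate 1 (adjusted p = 0.0537), scale replicate 2 (0.0635), melanoma replicate 2 (0.0688), replicate 3 (0.0868) or replicate 4 (0.0604), with both less complex libraries left out (0.111) and with total counts alone (-0.46, 0.595).

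Of the other class III receptors, 1 of 3 tested rows fell and 2 did not pass, with a median log2 change of -1.36. The fallen row was pdgfra, a PDGF receptor of mesenchymal cells that is next to kita in the same annotation. It went from 2.06 ± 0.522 to 0.423 ± 0.314 CPM (-2.28 ± 0.75, edgeR adjusted p = 0.0313), against the direction of kita. The pdgfra call was lost without the first column of scale replicate 3 (adjusted p = 0.0531), melanoma replicate 1 (0.0529), melanoma replicate 2 (0.0687) or the 2 less complex libraries (0.0962), and with total counts alone (-1.05, 0.318).

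Adaptors and proximal signalling genes had 27 tested rows, of which 10 rose, 0 fell and 17 did not pass, with a median log2 change of 0.65. Beside these counts, 21.7% of all genes tested were called higher and 15.2% lower. The phospholipase gene plcg1 rose from 15.6 ± 2.14 to 91.5 ± 19.9 CPM (2.55 ± 0.33, edgeR adjusted p = 0.000158). The Src family kinase gene yes1 rose from 22.7 ± 2.99 to 84.9 ± 13.3 CPM (1.90 ± 0.31, adjusted p = 0.000649), and the adaptor gene shc2 from 6.03 ± 0.522 to 32.6 ± 16.7 CPM (2.43 ± 0.42, adjusted p = 0.000898). This list also holds genes that blood cells use. Beside it, macrophage markers summed to 266 to 836 CPM in scale libraries and to 188 to 5702 CPM in melanoma, with 3 of 13 rows higher and 1 lower, and the top sum was in melanoma replicate 1. Without that library 9 adaptor rows were higher and 1 lower, and with the 5 CPM filter 6 were higher and 2 lower. The part of macrophages in these counts was not tested.

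**Figure D4:**
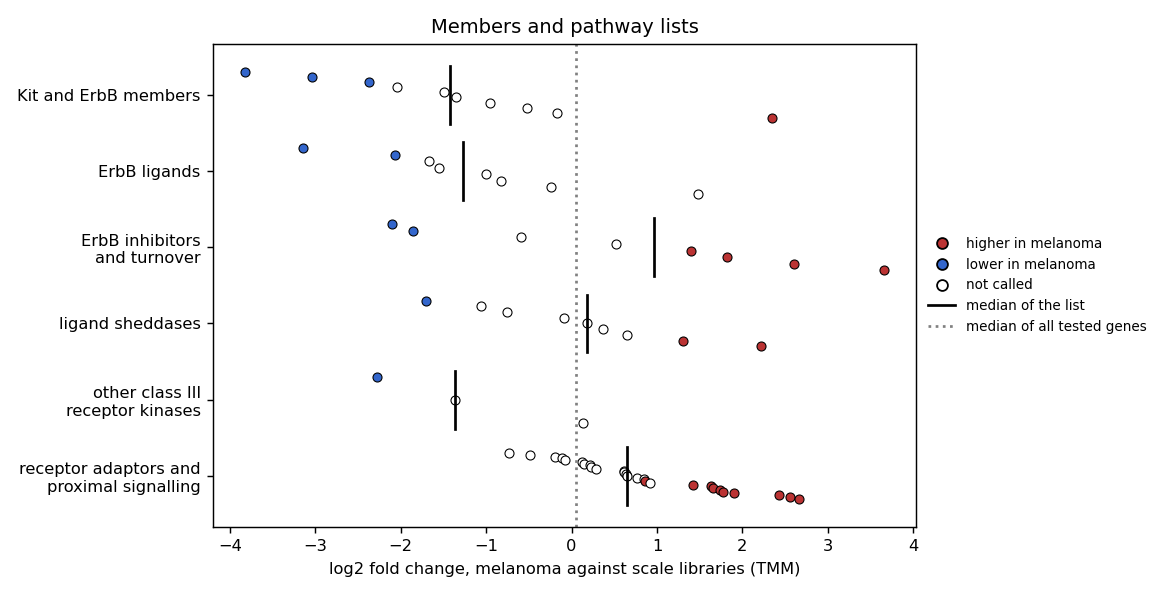
Log2 change, melanoma against scale libraries, of every tested row among the members and in the lists of ErbB ligands, inhibitors and turnover factors, ligand release factors, other class III receptors and adaptors, with 1 point per row, coloured where it passed the test and open where it did not, a black bar for each list's median and a dotted line for that of all tested genes. Ligands hold 2 fallen and 0 risen of 8 rows, and adaptors hold 10 risen and 0 fallen of 27 rows. Over all genes tested, 21.7% were called higher and 15.2% lower.

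The markers of other cell types known to use these receptors were set beside them. For each 1000 counts of epidermal markers, scale libraries held 1.39 to 2.63 counts of egfra and melanoma libraries 31.3 to 191 counts. The same measure was 0.297 to 0.531 and 17.2 to 175 for erbb3a, and 0.225 to 0.715 and 6.59 to 112 for erbb3b. The summed epidermal markers, in which keratins weigh most, thus differed by more than these receptors. Schwann cell markers summed to 58.4 to 83.0 CPM in scale libraries and 25.3 to 56.6 CPM in melanoma, and 2 of 7 rows fell. For each 1000 counts of Schwann cell markers, erbb3b had 145 to 272 counts in scale libraries and 17.3 to 81.8 counts in melanoma. That sum is carried by mbpb, which did not pass the test (37.7 and 27.4 CPM, log2 change -0.46, edgeR adjusted p = 0.318). The fallen Schwann rows were both named ngfr and fell by 3.43 and 2.47 on the log2 scale, beside -3.03 for erbb3b. The myelin gene mpz had -1.91 (edgeR adjusted p = 0.122), and egr2 (-1.55), mbpa (-0.68) and plp1b (-0.17) did not pass either. The egr2 row stood at 12.5 to 19.8 CPM in scale libraries. In melanoma it stood at 19.5 CPM in replicate 1 and at 0.451 to 0.601 CPM in the others.

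For each 1000 counts of pigment cell markers, kita had 121 to 312 counts in scale libraries and 5.34 to 44.2 counts in melanoma. The sum is dominated by tyrp1 and pmela, and single pigment rows differed. Rows mitf (ENSDARG00000003732) and slc24a5 rose by 2.55 and 2.46 on the log2 scale, beside 2.35 for kita (edgeR adjusted p = 0.0193 and 0.00942). These were the smallest rises among the risen pigment rows. The others rose by more, from 4.75 for tyrp1 (ENSDARG00000029204) to 8.71 for sox10. The second mitf row (-0.75, adjusted p = 0.301) and pmelb (-1.60, adjusted p = 0.251) did not pass. Mast cells also depend on Kit in mammals, and of their markers only gata2 had a row, which rose from 0.0222 to 0.839 CPM in scale libraries to 0.544 to 6.97 CPM in melanoma (edgeR adjusted p = 0.0102). Per 1000 counts of macrophage markers, kita had 26.7 to 39.5 counts in scale libraries and 15.4 to 345 counts in melanoma, so these ranges overlapped. Rows named mfap4 make up most of that marker sum, and none of them passed the test.

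Genes with the most similar pattern were found by Pearson's r of log2 CPM over the 8 libraries, for the members averaging at least 10 CPM and among 5661 genes with a unique symbol and a mean of at least 10 CPM. All of these values are descriptions, and they are dominated by the difference between the groups where a member differs between them. For kita they were spry4 (r = 0.992), fbxo25 (0.990) and mak16 (0.989). For egfra they were scap (0.996), alas1 (0.994) and mst1ra (0.994). For kitlga, which did not pass the test, the nearest were ano10b (0.956), idh3b (0.955) and tm9sf2 (0.953), and for erbb2 they were dennd2c (0.948), chst11 (0.940) and mtus1b (0.932).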

How the data were processed

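The authors deposited a table of whole-number read counts per Ensembl gene for 8 libraries. The submitters' processing notes list STAR 2.3, HTSeq and DESeq2, and build Zv9, without stating what each was used for. RNA was extracted with Trizol and libraries were made with TruSeq chemistry, per the labels' protocols. The sources used here do not give the annotation release, the strand setting or the handling of multimapping reads, so reads of overlapping or near-identical genes may be split or dropped. No row summed to under 40 counts. A deposited table of normalized values was not used here.

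Columns were matched by name. The name of replicate 3 heads 2 melanocytes columns, and these were used without a number. No 2 libraries agreed within counting noise (smallest chi-square per degree of freedom 127). Symbols were found for 19599 of 28272 identifiers, and 95 of 116 listed symbols had a row.

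Counts were filtered with filterByExpr and tested in edgeR 4.0.16 (R 4.3.3) with TMM scaling, a quasi-likelihood fit with group as the only term, Benjamini-Hochberg adjustment over 26749 genes and a threshold of 0.05. TMM factors ranged from 0.467 to 1.67. The fit was tested on simulated data in which most genes had the same mean in both groups. That test does not cover the difference in composition between these groups. Members, gene lists and pairs were chosen with earlier results of these data known, so the counts over lists and the p-values of the ratios are descriptions. From each pathway list up to 3 risen and 3 fallen rows were named, by adjusted p. For likeness, a prior count of 2 went into log2 CPM.

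Alternatives were DESeq2 1.42.0, limma-voom (limma 3.58.1), RLE, upper quartile and total-count scaling, no filter, at least 5 CPM in at least 4 libraries, a threshold of 0.01, at least a 2-fold change, a replicate block, 5 in place of 0.5 added to counts for ratios, leaving out each library and leaving out the 2 less complex libraries. Python 3.11.15, pandas 2.3.3 and matplotlib 3.10.9 made tables and figures. A further item of the genotype is not reported here.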

Additional observations from a re-analysis of the deposited data

Results flagged for a closer look

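In melanoma replicate 3, kitb stood at 2.42 CPM, far above the other three melanoma libraries, with a gap to the nearest of 0.898 of the group's range. In the same library the log2 ratio of kita to kitb was 4.73, the lowest of its group, with a gap of 0.856 of the range. The untested ERBB4 row ENSDARG00000089536 stood at 0.228 CPM in melanoma replicate 4, with a gap of 0.912 of the range and only 33 counts behind it. These are 3 of 40 groups checked for a library far from the others. The rule used flags about 5% of groups by chance if values are normally distributed, which was not checked for CPM. The groups are also not independent, as the kitb level and the ratio of kita to kitb share the kitb value of melanoma replicate 3.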

How the results depend on the processing

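The calls of kita, egfra, erbb3a and erbb3b kept their direction and their side of the threshold under all 20 alternatives. Called members numbered 1 higher and 3 lower; lower members were 5 with upper quartile scaling, 5 with the 5 CPM filter and 6 without the 2 less complex libraries, and higher members 2 with total counts alone. Leaving out 1 library gave 1 higher and 3 to 5 lower. With total counts alone kitlga (0.71), kitlgb (0.25) and erbb2 (1.07) changed sign, but stayed negative relative to the median of all genes (-0.46, -0.92 and -0.10; -0.57, -1.004 and -0.23 with TMM). The sign of erbb2 also turned without the 2 less complex libraries (0.0837) and without melanoma replicate 2 (-0.56 to 0.0734 over the single libraries left out), the cause of which was not tested.

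Over all genes, 5799 were higher and 4056 lower, 58.8% higher among those called. Higher genes numbered 10873 with total counts alone, 3272 with the 5 CPM filter and 3565 at an adjusted p of 0.01, and lower genes 1778 with total counts alone and 2412 at 0.01. The higher share was 85.9% with total counts, 41.6% with upper quartile scaling, 53.0% with RLE, 50.6% with DESeq2, 49.9% with the 5 CPM filter and 49.97% without the 2 less complex libraries. Total counts alone also called 23 adaptor rows and 6 ligand release rows higher. Leaving out 1 library gave 3981 to 5822 higher and 3188 to 4653 lower.

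The replicate block gave 5049 higher and 3596 lower genes, or 4864 and 3307 with the columns of replicate 3 exchanged, and 1 higher with 4 or 3 lower members. The member gained is ERBB4 row ENSDARG00000090408 (-2.24, adjusted p = 0.0404), and the exchanged block ended the calls of adam10b (0.0760) and pdgfra (0.0545). Deviations of same-numbered libraries correlated at -0.0186 and 0.107 for replicates 1 and 2, so the numbers were not taken to pair libraries. No pair ratio passed after adjustment under any alternative run (0 of 9). Having 4 libraries a group limits that test, since a pair at the smallest p passes only if most other pairs reach it too. Without the 2 less complex libraries, the smallest p it allows is above 0.05, so no pair could pass there.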
